A study of Macaca fascicularis with 44 samples.

Results

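The genes described here averaged lower in cultured cynomolgus monkey brain endothelial cells (BECs) of the cortex than in freshly isolated microvessels. These genes were higher again after the cells had been re-plated. They were chosen from mean FPKM (fragments scaled to gene length and to the total counted) in each cortical fraction. A gene had to average at least 0.1 FPKM after 7 days of culture and no more than 50% of its level in freshly isolated microvessels. After re-plating it had to average at least 1 FPKM and at least 2 times its level at day 7. The rule took 123 of 28623 gene identifiers, 0.43% of the table. The fall from P0D0 to P0D7 and the rise from P0D7 to P1D7 are therefore what chose these genes, and are given below as values with no test.

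Endothelial cells of brain microvessels form the blood-brain barrier, with tight junctions between cells, little vesicular traffic and many transporters. This state is held in part by signals from pericytes, astrocytes and neurons, by Wnt and Notch ligands and by blood flow. Brain ECs taken out of the tissue are known to lose part of the barrier programme, and to enter the cell cycle as they spread on a dish.

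The series holds 44 RNA-seq libraries from cynomolgus monkeys (Macaca fascicularis) of both sexes that had earlier served in preclinical studies and had passed a washout period. P0D0 is the pellet of cortical microvessels after enzymatic digestion and centrifugation (8 libraries). P0D7 is that pellet after 7 days in EBM-2 with the EGM-2 MV supplements, with puromycin lowered and then removed, from cortex (8 libraries), brainstem (6), hippocampus (7), striatum (7) and cerebellum (2). P1D7 is cortical cells brought to single cells, re-plated and grown for another 7 days (6 libraries). The labels name no genetic change, and all cultured cells had seen puromycin while P0D0 had not. The P0D0 pellet also holds RNA from blood cells, neurons, glia and pericytes, so in these bulk libraries fewer cells of a type and less RNA per cell cannot be told apart. The identifiers are not paired with symbols here, so neither the endothelial label nor any other cell type could be checked against its markers, and the functions of the 123 genes are not given. Titles carry codes from BBB027 to BBB038, read here as preparations, and whether each is a separate animal is not stated. P-values therefore measure the spread between these libraries. The titles number the cortical libraries and those of the other structures in 2 overlapping series. Whether the 2 series were handled apart is not stated, so structure and series cannot be told apart where other structures are set against cortex.

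Total counts were 8600889 to 10738453 in P0D0, 15513781 to 23138726 in cortical P0D7, 17150398 to 19849831 in P1D7 and 8633089 to 24450445 in the other structures. The 10 most abundant genes took 28.5% of the total in P0D0 replicate 3 and 11.2% to 15.4% in its sister libraries. Without that library, 122 genes met the rule, 119 of them shared.

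Few of the genes that fell at day 7 met the second condition. In all, 3431 genes averaged at least 0.1 FPKM in P0D7 and no more than 50% of P0D0, and 1797 of these reached 1 FPKM in P1D7. The 123 genes are 6.84% of the 1797, whose median ratio of P1D7 to P0D7 was 1.01. The rule's edges ran through a continuum. The P0D7 level nearest to the limit was 49.96% of P0D0 inside it and 50.2% outside, the ratio of P1D7 to P0D7 was 2.01 inside and 1.998 outside, and the P1D7 level was 1.00 FPKM inside and 0.967 FPKM outside. The lowest P0D7 mean was 0.161 FPKM, and no gene was left out by the 0.1 FPKM floor alone.

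Most of the 123 genes were of low to moderate abundance. Their mean level in P0D0 ran from 0.52 to 961 FPKM with a median of 5.15, against a median of 9.74 over the 13522 genes tested in the cortex (those that reached 1 FPKM in 50% or more of a fraction's libraries). In P0D7 the range was 0.16 to 221 FPKM (median 0.87), and in P1D7 it was 1.00 to 464 FPKM (median 2.92). In P1D7, 23 genes reached 10 FPKM, 3 reached 100 FPKM and 49 lay under 2 FPKM. Over the 8 cortical P0D7 libraries together, the genes had a median of 438 counts, and the lowest had 4. The loss at day 7 was deep for part of the set. The P0D7 mean was 0.98% to 49.96% of P0D0 (median 21.2%), and 31 genes lay under 10%, while the median over all tested genes was 95.1%. The rise after re-plating was mostly small. It was 2.01-fold to 16.4-fold with a median of 2.76-fold, under 3-fold in 75 genes, at least 4-fold in 28 and at least 8-fold in 5.

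The P0D0 level was restored in part for most of the genes and passed by some. The P1D7 mean was 3.22% to 718% of the P0D0 mean, with a median of 60.8% and quartiles of 36.1% and 92.9%. Of the 123 genes, 27 reached or passed their P0D0 level, 9 of them by at least 2-fold. Another 46 came back to between 50% and 100%, 32 to between 25% and 50%, and 18 stayed under 25%, 7 of these under 10%. Within 67% to 150% of P0D0 lay 40 genes. Counted as the part of the P0D0 to P0D7 loss that was regained, the median was 48.3% and the quartiles were 25.7% and 89.5%.

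Taken by class, the genes that stayed lowest had the highest median level in microvessels. The 18 genes under 25% had a median of 20.1 FPKM in P0D0, 0.90 FPKM in P0D7 and 2.30 FPKM in P1D7. For the 32 genes between 25% and 50% these medians were 7.30, 0.87 and 2.69 FPKM, and for the 46 genes between 50% and 100% they were 3.00, 0.80 and 1.88 FPKM. The 27 genes at or above the P0D0 level had medians of 3.69 FPKM in P0D0, 0.88 FPKM in P0D7 and 6.08 FPKM in P1D7. The P0D7 medians of the 4 classes were thus close to each other, and the classes differed in where the genes had started and how far they rose. P0D0 enters both the classes and these levels, so the pattern is a description. It did not hold gene by gene. Of the 9 genes with at least 50 FPKM in P0D0, 3 stayed under 25%, while the most abundant of all, at 961 FPKM, came back to 48.3%, and others with 93.1 and 57.4 FPKM reached 127% and 142%.

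**Figure D1:**
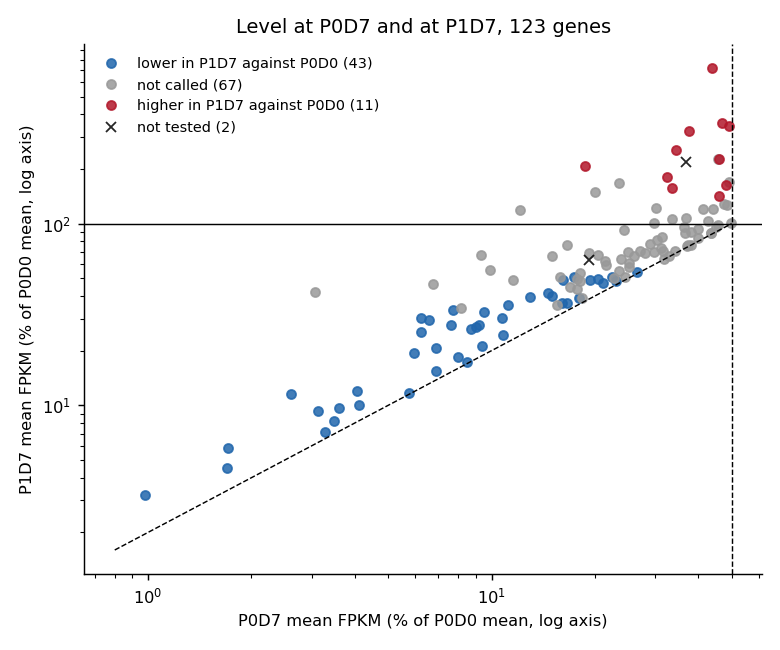
Each point is 1 of the 123 genes, with its mean FPKM in P0D7 (x axis) and in P1D7 (y axis), both as % of its P0D0 mean on log axes; the dashed lines are the limits of the rule and the solid line is the P0D0 level. The 27 genes on or above the solid line include all 11 that edgeR called higher in P1D7 than in P0D0, and the 43 called lower lie between 3.22% and 54.0%.

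Library by library, the median level over the 123 genes kept the 3 cortical fractions apart. With each gene expressed as % of its P0D0 mean, the median was 77.2% in the lowest P0D0 library, 95.6% in the middle of them and 120% in the highest. In the P0D7 libraries it was 11.0% at the lowest, 15.0% in the middle and 25.3% at the highest, and in the P1D7 libraries 38.9%, 51.3% and 67.7%. No library of a fraction overlapped another fraction in this median, a separation that the choice of genes sets. The median over all tested genes was 84.3% to 105% in P0D0, 86.0% to 95.0% in P0D7 and 81.8% to 87.0% in P1D7. Together the 123 genes took 0.670% to 0.847% of the counts of a P0D0 library, 0.0959% to 0.225% of a P0D7 library and 0.373% to 0.478% of a P1D7 library. Between 3 and 18 of the genes lay under 0.1 FPKM in a given cortical P0D7 library, between 1 and 3 in a P1D7 library and between 0 and 7 in a P0D0 library.

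**Figure D2:**
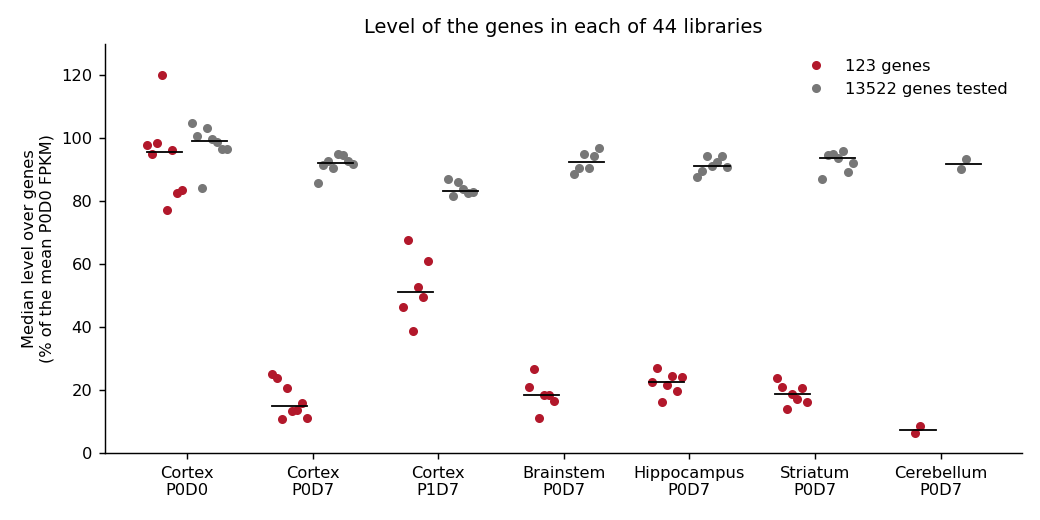
For each of the 44 libraries, the median over the 123 genes (red) and over the 13522 tested genes (grey) of the FPKM as % of the mean P0D0 FPKM; lines are medians over libraries. The 30 P0D7 libraries of the 5 structures lie between 6.56% and 27.2% for the 123 genes, below the 38.9% to 67.7% of P1D7.

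The fall and the regain are given here within the 6 preparations that had all 3 fractions. The rule used these libraries, so the counts are in part set by the choice of genes and are a description. Between 108 and 119 of the 123 genes were lower in P0D7 than in both P0D0 and P1D7 of the same preparation, and 72 to 102 were at least 2-fold lower than both. Among all 13522 tested genes, 4.29% to 7.02% were at least 2-fold lower than both within a preparation. In 86 genes P0D7 was the lowest fraction in 6 of 6 preparations, in 112 it was so in 5 or 6, and in 3 genes it was so in no more than 3. By at least 2-fold it was so in 6 of 6 preparations for 19 genes. The shares of all tested genes with P0D7 simply lowest, or across several preparations, were not counted, so nothing is read from those counts. The number of genes that reached their own preparation's P0D0 level in P1D7 varied from 26 in BBB032 and 29 in BBB031 to 43 in BBB036 and 47 in BBB030. The cortical P0D7 libraries of BBB027 and BBB028, for which no P0D0 or P1D7 library was analysed here, had the highest medians of their group, 25.3% and 24.0%. Taken over the 6 complete preparations alone, the rule gave 193 genes, among them 114 of the 123.

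For many of the genes the libraries of the fractions overlapped. All 6 P1D7 libraries lay above all 8 P0D7 libraries in 49 of the 123 genes (2.12% of all tested genes did so), and all 8 P0D0 libraries lay above all P0D7 libraries in 66 (24.2% of all tested genes). These contrasts were used by the rule. Both separations held in 32 genes and neither in 40. The shares of all tested genes with both or neither were not counted, so nothing is read from these numbers. In 4 genes a single library supplied more than 50% of the summed P1D7 FPKM, at most 77.2%. When each cortical library was left out in turn, 67 of the 123 genes met the rule every time, and 56 dropped out without at least 1 library.

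The ratio of P1D7 to P0D0 was no part of the rule, although both means entered the choice, and it was tested with edgeR over the 13522 genes of the cortical fit, which held 121 of the 123. Calls needed a change of 1.5-fold or more with an adjusted p (Benjamini-Hochberg) of 0.05 or less. In P1D7, 43 genes were lower than in P0D0, 11 were higher and 67 were not called. Over all tested genes, 34.3% were lower, 29.2% higher and 63.6% called in either direction. Since the choice of genes bears on both fractions, nothing is read from the difference between these shares. The 43 lower genes had log2 fold changes from -4.94 to -0.76 (median -1.64), and the 11 higher genes from 0.70 to 3.00 (median 1.34). When the preparation was entered as a block, 49 genes were lower and 11 higher, where 63.9% of all tested genes were called. All 18 genes that stayed under 25% were called lower. So were 22 of the 32 between 25% and 50%, and 3 of the 46 between 50% and 100%. Of the 27 at or above their P0D0 mean, 11 were called higher and 15 were not called.

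The 67 genes not called are not shown to be back at their P0D0 level. Their fitted log2 changes ran from -1.44 to 1.35 with a median of -0.24, and the standard errors ran from 0.16 to 1.16 with a median of 0.44. In 47 of them the fitted change was within 1.5-fold, and in 4 it was 2-fold or more. They were of low abundance, with a median of 3.08 FPKM in P0D0, against 13.4 FPKM for the 43 lower genes and 3.04 FPKM for the 11 higher ones. The median log2 change of all tested genes was -0.05 with TMM scaling and -0.17 with DESeq2 size factors, and for the members it was -0.56 and -0.68.

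Of the 32 genes that separated both ways, 11 averaged at least 5 FPKM in P1D7. The 2 with the lowest and the 2 with the highest ratio of P1D7 to P0D0 are given by identifier. Since this ratio picked them, their edgeR values for P1D7 against P0D0 are a description and no separate support. ENSMFAG00000030983 had 36.1 FPKM in its lowest, 52.3 FPKM in its median and 82.5 FPKM in its highest P0D0 library. In cortical P0D7 it had 2.05, 4.39 and 9.40 FPKM, and in P1D7 11.2, 14.1 and 19.1 FPKM, in the same order. Its 3 fractions did not overlap, and P1D7 stood between the other two. The means were 53.6 ± 15.6 FPKM (SD, n = 8) in P0D0, 4.83 ± 2.35 FPKM (n = 8) in P0D7 and 14.4 ± 3.16 FPKM (n = 6) in P1D7. By edgeR it was lower in P1D7 than in P0D0, with a log2 fold change of -1.46 ± 0.27 (SE) and an adjusted p of 3.43e-05. In the P0D7 cells of brainstem, hippocampus and striatum it averaged 2.78, 4.00 and 4.17 FPKM, and it had 1.77 and 3.07 FPKM in the 2 cerebellar libraries.

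ENSMFAG00000036079 had 18.3 FPKM in its lowest, 26.8 FPKM in its median and 37.7 FPKM in its highest P0D0 library. In cortical P0D7 these values were 0.50, 1.92 and 4.68 FPKM, and in P1D7 5.27, 8.55 and 9.62 FPKM. Here too the fractions did not overlap and P1D7 lay between. The highest P0D7 libraries were those of BBB027 (3.93 FPKM) and BBB028 (4.68 FPKM), which were also the highest over all members. The mean was 28.1 ± 6.30 FPKM (SD, n = 8) in P0D0 and 7.80 ± 1.87 FPKM (n = 6) in P1D7, a log2 fold change of -1.64 ± 0.37 (SE) by edgeR with an adjusted p of 0.000346. The gene was widely spread in the other structures, from 0.80 to 10.7 FPKM over the brainstem libraries, so that some of these reached the P1D7 level and others stayed at that of cortical P0D7.

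ENSMFAG00000039873 had P1D7 libraries within its P0D0 range. It had 5.74 FPKM in its lowest, 8.19 FPKM in its median and 20.9 FPKM in its highest P0D0 library, 2.89, 3.85 and 5.36 FPKM in cortical P0D7, and 8.03, 10.2 and 12.6 FPKM in P1D7. All 6 P1D7 libraries lay within the P0D0 range and above every P0D7 library. The means were 9.69 ± 5.11 FPKM (SD, n = 8) in P0D0, 4.13 ± 0.90 FPKM (n = 8) in P0D7 and 10.1 ± 1.56 FPKM (n = 6) in P1D7. By edgeR the P1D7 to P0D0 log2 fold change was 0.25 ± 0.23 (SE) with an adjusted p of 0.326. This gene met the rule through 1 library: without P0D0 replicate 4, its highest, the P0D0 mean was 8.08 FPKM and P0D7 was 51.2% of it, over the limit. The other 3 named identifiers met the rule whichever cortical library was left out.

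ENSMFAG00000030766 passed its P0D0 level from few counts. It had 1.46 FPKM in its lowest, 3.72 FPKM in its median and 6.35 FPKM in its highest P0D0 library, from 10 to 44 counts. Cortical P0D7 gave 0, 0.90 and 1.23 FPKM, from 0 to 16 counts, and P1D7 gave 3.83, 6.83 and 12.7 FPKM, from 48 to 165 counts. P1D7 overlapped P0D0 and lay above every P0D7 library. By edgeR the P1D7 to P0D0 log2 fold change was 1.24 ± 0.43 (SE) with an adjusted p of 0.0117. In brainstem P0D7 it averaged 0.149 FPKM, in hippocampus 0.715 FPKM and in striatum 0.739 FPKM, and both cerebellar libraries had 0 counts.

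**Figure D3:**
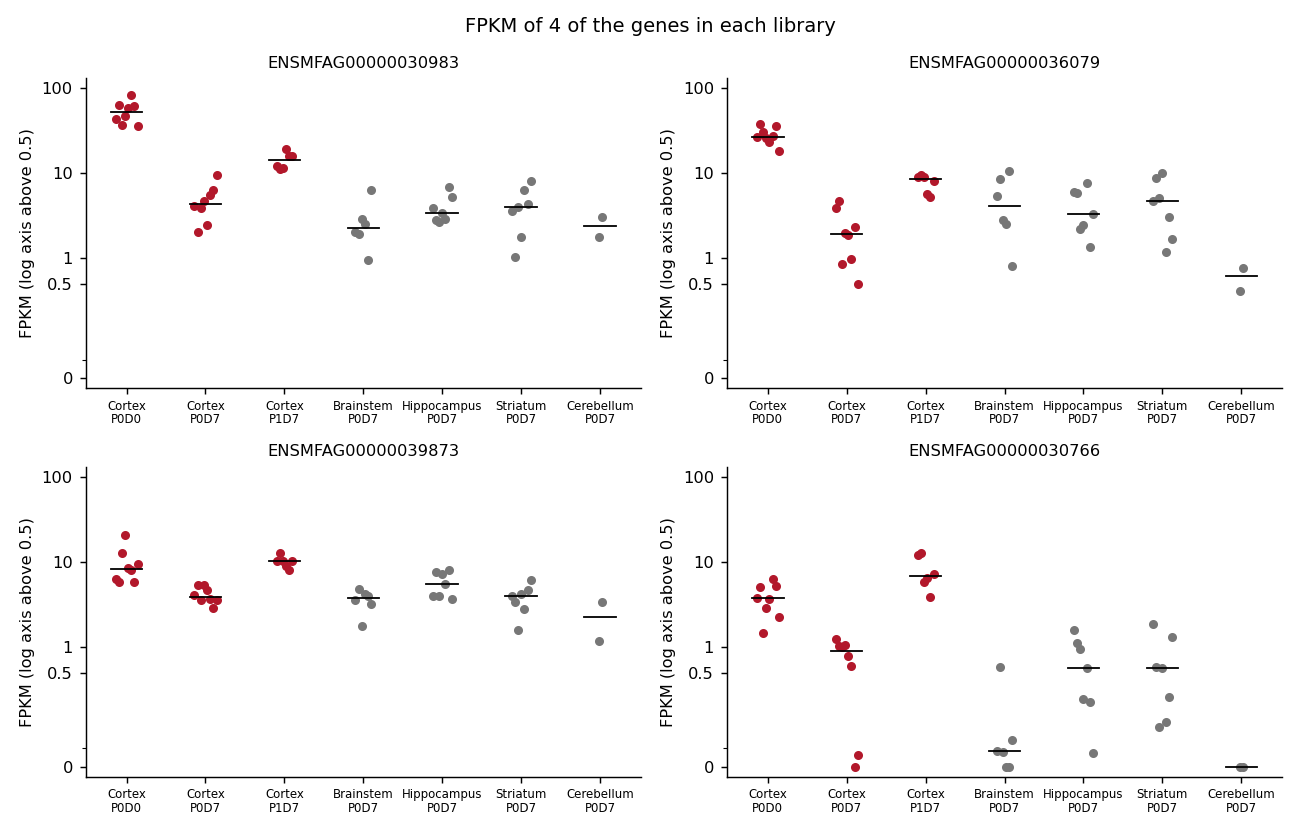
FPKM of the 4 named identifiers in each of the 44 libraries (y axis, log above 0.5 and linear below, so that 0 can be drawn), cortical fractions in red and the P0D7 cells of other structures in grey, with lines at the median of each group. In each panel all P0D0 and all P1D7 libraries lie above all cortical P0D7 libraries, and for ENSMFAG00000030983 P1D7 reaches 11.2 to 19.1 FPKM of the 36.1 to 82.5 FPKM in P0D0.

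The extremes of the set, chosen after their values were seen, had other courses. The most abundant gene in P1D7 had 686 FPKM in its lowest, 985 FPKM in its median and 1150 FPKM in its highest P0D0 library. In cortical P0D7 it had 132, 201 and 345 FPKM, and in P1D7 360, 480 and 561 FPKM. Its fractions did not overlap, and P1D7 was 48.3% of P0D0, a log2 fold change of -0.89 ± 0.21 (SE) with an adjusted p of 0.000697 by edgeR. Without cortical P0D7 replicate 8 its rise was 1.98-fold, under the limit of the rule. The next most abundant gene had 55.1, 70.0 and 227 FPKM in P0D0, 28.2, 38.9 and 74.5 FPKM in cortical P0D7, and 105, 119 and 135 FPKM in P1D7. Its P1D7 libraries lay above all those of P0D7, while the P0D0 libraries overlapped both, and edgeR did not call it (0.53 ± 0.27 on the log2 scale, adjusted p = 0.0808). It lay close to the limit for the fall and no longer met the rule without any 1 of 5 libraries. Without P0D0 replicate 4 its P0D7 mean was 61.3% of P0D0, and without P0D7 replicates 3, 5, 6 or 8 it was 50.04% to 51.3%.

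The largest rise after re-plating, 16.4-fold, was also the largest excess over P0D0. That gene had 1.98, 3.72 and 9.82 FPKM in the lowest, median and highest P0D0 library, 0.27, 1.88 and 4.13 FPKM in cortical P0D7 and 10.8, 27.6 and 66.998 FPKM in P1D7. Every P1D7 library lay above every P0D0 library, and the P1D7 to P0D0 log2 fold change was 3.00 ± 0.47 (SE) with an adjusted p of 4.49e-06 by edgeR. Its fall at day 7 rested on P0D0 replicate 3, without which P0D7 was 52.6% of P0D0 and the gene did not meet the rule. At the other end, the gene with the lowest share restored had 107, 187 and 479 FPKM in P0D0, 0.62, 2.05 and 3.78 FPKM in cortical P0D7, and 2.19, 4.32 and 19.5 FPKM in P1D7. Here P1D7 overlapped P0D7, and 1 library gave 45.4% of the summed P1D7 FPKM. By edgeR its P1D7 level remained lower than that of P0D0 by a log2 fold change of -4.94 ± 0.59 (SE), with an adjusted p of 8.45e-08. Both genes were picked for extreme ratios, so these p-values too are a description.

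In the P0D7 cells of the other structures, most of the genes were also below 50% of cortical P0D0. The rule did not use these libraries, but it used the cortical P0D0 mean they are set against, so the counts are in part fixed by the choice of genes and are given with no test. The group mean was at most 50% of the cortical P0D0 mean for 111 of the 123 genes in brainstem, 94 in hippocampus, 101 in striatum and 119 in cerebellum. Of the 13522 tested genes, 28.6%, 30.1%, 28.7% and 31.2% were that low in the same order. It was so for 81 genes in each of brainstem, hippocampus and striatum (26.8% of all tested genes) and for 4 in none of these. No microvessel fraction of these structures was analysed here, so their own starting level is not known. In the library medians, brainstem had 11.2% of cortical P0D0 at the lowest, 18.6% in the middle and 26.8% at the highest. Hippocampus had 16.3%, 22.5% and 27.2%, striatum 14.2%, 18.9% and 23.9%, and the 2 cerebellar libraries had 6.56% and 8.57%. Brainstem, hippocampus and striatum overlapped each other and cortical P0D7. Both cerebellar libraries were below every other library, and with 2 of them no test was made. The paper states that 2 further cerebellum samples were excluded for low RNA levels. The 2 kept came from BBB029 and BBB035, and BBB029 was also the lowest P0D7 library in cortex, brainstem, hippocampus and striatum. Whether the low level belongs to the structure or to these samples was not tested.

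Few genes reached their cortical P1D7 level in these structures. The mean was at least that of cortical P1D7 for 4 genes in brainstem, 7 in hippocampus, 3 in striatum and 2 in cerebellum, against 62.5% to 68.6% of all tested genes. It was at least 2 times the cortical P0D7 mean for 10, 21, 8 and 3 genes in the same order. Of all tested genes, 2.76%, 2.75%, 2.68% and 2.60% were that high. It was at most 50% of the cortical P0D7 mean for 14, 9, 9 and 57 genes, against 5.35%, 5.15%, 4.35% and 10.5% of all tested genes. Since the genes were chosen low in cortical P0D7 and high in P1D7, these counts are a description. All 6 P1D7 libraries lay above all 22 P0D7 libraries of the other structures in 22 of the 123 genes (1.29% of all tested genes), and all 8 P0D0 libraries did so in 46 (21.2% of all tested genes).

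**Figure D4:**
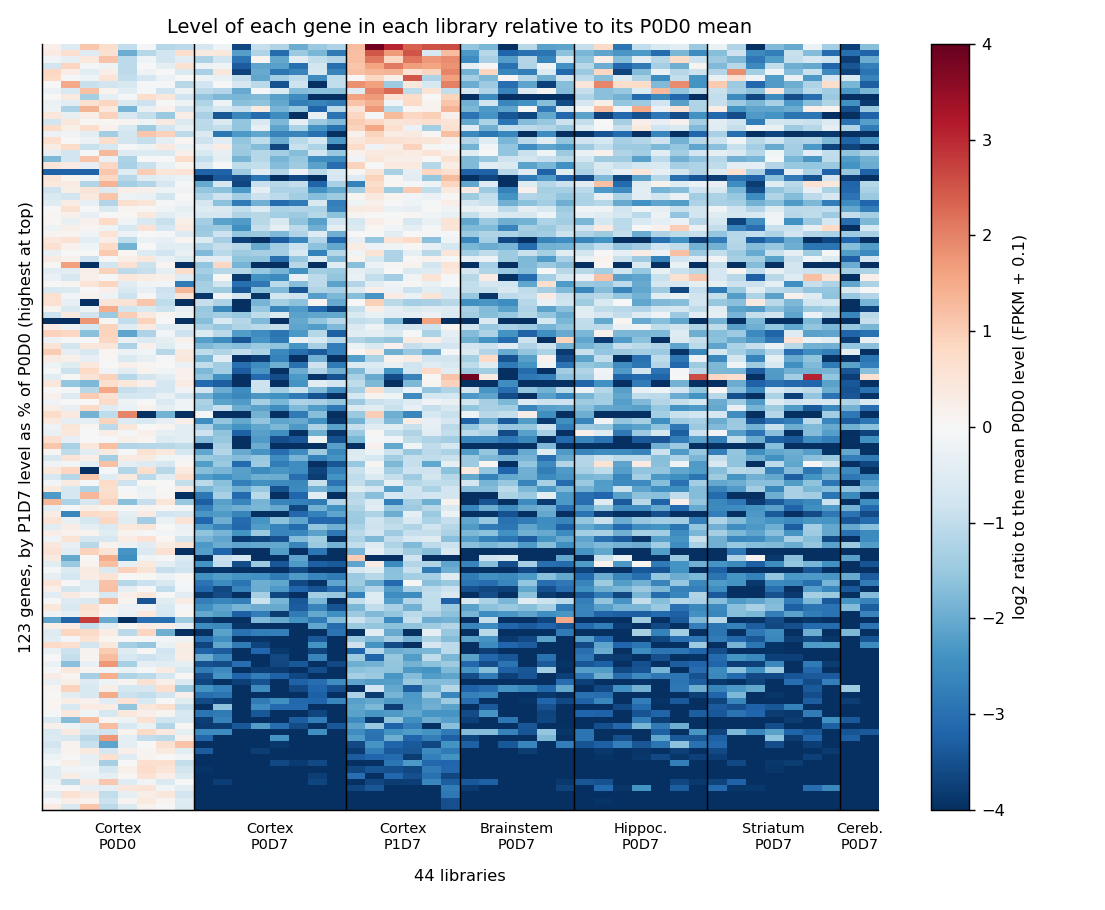
Level of each of the 123 genes (rows, by P1D7 level as % of P0D0) in each of the 44 libraries (columns, by group), as the log2 ratio of FPKM + 0.1 to the mean P0D0 level + 0.1, with colours ending at -4 and 4. The 27 genes at the top reached their P0D0 mean in P1D7, the 18 at the bottom stayed under 25%, and the P0D7 columns of the other structures are mostly as low as those of cortex.

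Libraries of 1 preparation lay high or low together in several structures. In BBB029 the median level was 11.0% of cortical P0D0 in cortex, 11.2% in brainstem, 16.3% in hippocampus and 14.2% in striatum, the lowest of each group. In BBB028 it was 24.0%, 26.8%, 27.2% and 21.1%, the highest in brainstem and hippocampus and the next to highest in cortex. In each of the 6 preparations with both structures, the hippocampal median was above that of brainstem, although the 2 groups overlapped.

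Some of these genes were lower in brainstem than in hippocampus when the 2 structures were compared within preparations. The fit over the 30 P0D7 libraries, cortical ones included, held 12114 genes that reached 1 FPKM in 3 or more of them. Of the 123 genes, 103 were among these. The genes were chosen low in cortical P0D7, so some could pass this filter only through a structure where they are high. In the comparisons of structures, nothing is therefore read from their share called against that of all genes. The block was not run without the filter. Without a block, edgeR called 0 of the 103 genes and 0 of all genes, with 25 of the 103 and 1384 of all genes at an unadjusted p under 0.05, and DESeq2 called 2 of the 103, both lower in brainstem, and 8 of all 12110 genes it adjusted, 5 of them lower. Once the preparation was entered as a block, edgeR called 28 genes lower in brainstem and 2 higher, where 2.11% of all tested genes were lower, 2.29% higher and 4.4% called in either direction. The 28 genes were 27.2% of those tested. Their log2 fold changes ran from -3.46 to -0.71 (median -1.17, SE 0.14 to 0.73) with adjusted p from 0.00699 to 0.0449, and 26 of them were lower in brainstem in 6 of 6 pairs and the other 2 in 5 of 6. The 2 higher genes had log2 fold changes of 0.68 and 0.90 and were higher in all pairs. The fit that called these genes used the same pairs, so the pair counts are a description and no separate support. The median log2 change was -0.25 over the 103 genes and -2.1e-05 over all tested genes. Of the 103 genes, 62 were below 0, and the share of all tested genes below 0 was not counted. Given the filter, nothing is read from these values either.

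The count fell by more than 1.5 times when any of 9 libraries was left out. It was 10, 12, 10 and 13 lower genes without brainstem replicates 1, 3, 4 and 5, and 10, 12, 16, 15 and 11 without hippocampus replicates 2, 3, 4, 5 and 6. It was 20 to 28 without any other library of the 2 structures. The calls over all genes fell in the same fits, from 255 lower genes with every library to 33, 44, 37 and 66 without those brainstem libraries and to 38, 66, 79, 128 and 56 without those of hippocampus. In these 9 fits 9.71% to 15.5% of the 103 genes and 0.272% to 1.06% of all tested genes were lower in brainstem. The limit set by the filter holds for these shares too. Where a library was left out, its partner no longer had a pair.

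The levels of the 28 genes lower in brainstem are given as a description, since they were picked for being lower there than in hippocampus and their cortical levels were set by the rule. Their median level was 50.9% of cortical P0D0 in hippocampus and 24.1% in brainstem, beside 29.5% in cortical P0D7 and 73.2% in P1D7. In FPKM the medians were 1.79 in hippocampus, 0.73 in brainstem, 0.92 in cortical P0D7 and 3.39 in P1D7. The hippocampal mean was above 50% of cortical P0D0 in all but 13 of them, and the brainstem mean was at or below it in all 28. In P1D7, 9 of the 28 genes had at least their P0D0 level. Among the named identifiers, ENSMFAG00000039873 averaged 3.58 ± 1.06 FPKM (SD, n = 6) in brainstem and 5.71 ± 1.92 FPKM (n = 7) in hippocampus. With the block edgeR gave a log2 fold change of -0.71 ± 0.22 (SE) and an adjusted p of 0.0419, and without it an adjusted p of 0.391. ENSMFAG00000030766 was lower in brainstem by -2.35 ± 0.73 (SE) on the log2 scale, with an adjusted p of 0.0449 by edgeR with the block and 0.340 without, from 0 to 6 counts per brainstem library.

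**Figure D5:**
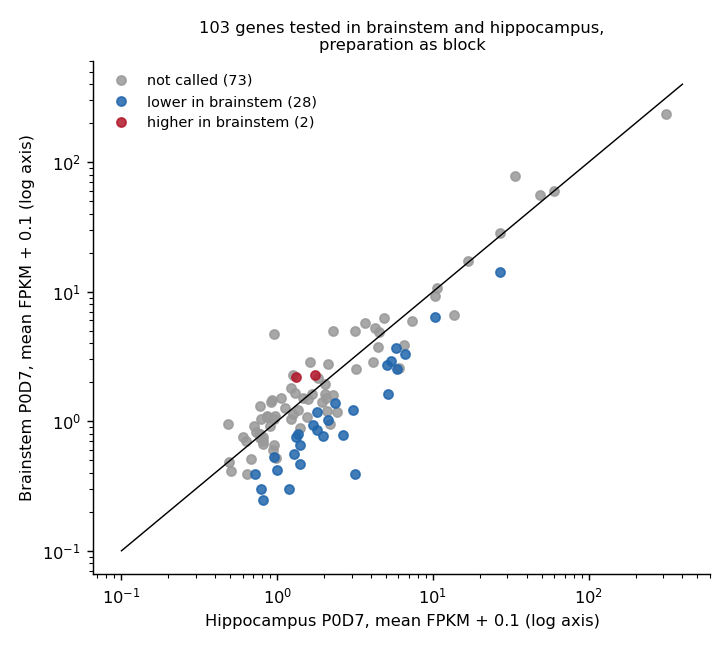
Mean FPKM + 0.1 of the 103 tested genes in hippocampus (x axis, n = 7) and brainstem (y axis, n = 6) P0D7 libraries, on log axes with a line at equal levels, coloured by the edgeR call with the preparation as a block. The 28 genes called lower in brainstem lie below the line, and the 2 called higher lie above it.

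Striatum did not part from either structure at the thresholds. For striatum against hippocampus edgeR called 0 of the 103 genes both with and without the block, with 24 and 12 genes at an unadjusted p under 0.05, which is 23.3% and 11.7% of them against 18.6% and 4.80% of all tested genes. DESeq2 called 0 of the 103 and 4 of all genes. With the block, 0.0165% of all tested genes were called lower and 0.0165% higher, 0.033% together. For brainstem against striatum it called 0 with and without the block, with 19 and 6 genes at an unadjusted p under 0.05, which is 18.4% and 5.83% of them against 3.94% and 1.27% of all tested genes, and DESeq2 called 0 of any genes. With the block, the striatum to hippocampus count was 6 without striatum replicate 1, 12 without striatum replicate 6 and 1 without hippocampus replicate 1, where 99, 296 and 5 of all tested genes were called.

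The FPKM values rest on a gene length that differs between libraries for some genes. The length implied by count and FPKM varied by more than 1.5-fold across libraries in 34 of the 123 genes, and in 13.9% of all tested genes. In 0 of the 123 was the length in P0D7 more than 1.5 times that in P1D7. With TMM-scaled counts, not divided by length, in place of FPKM for the 2 ratios of the rule, 120 of the 123 genes were kept. The median length was 2966 bases, against 2397 over all tested genes. A group of 13 genes was shorter than 300 bases. These had 1.01 to 3.88 FPKM in P1D7, a median of 50.1% of P0D0 restored against 63.6% for the other 110 genes, and P1D7 libraries all above P0D7 in 1 gene against 48.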

How the data were processed

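The authors' deposited table of estimated counts holds read pairs per gene, not normalized. The authors' deposited FPKM table scales the same counts by gene length and library total. Per the study's methods, ribosomal, low-quality and short reads (under 25 bases) were removed, and the rest were aligned with the Omicsoft aligner to the Washington University cynomolgus assembly and counted over Ensembl genes in ArrayStudio. The kit was stranded and rRNA was depleted. Of the counts, 1.45% were not whole (0.499% for the 123 genes), and all were rounded. Read pairs carry no molecular identifiers.

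The genes and lists were chosen with earlier results of these data known. Levels are FPKM. Tests used edgeR 4.0.16 in R 4.3.3 (TMM, quasi-likelihood F test, fold at least 1.5, Benjamini-Hochberg adjusted p at most 0.05), in 1 fit of the 22 cortical libraries and 1 of the 30 P0D7 libraries. The SE given with an edgeR log2 fold change is the size of that change divided by the square root of its F statistic. Alternatives used DESeq2 1.42.0 and limma 3.58.1. The edgeR test without a block was also run on simulated data with 200 changed genes, with the outcome not given here. The simulation held no preparation effect, so it does not bear on the fits with the block. No pair of libraries in a group agreed within sampling noise (mean chi-square per gene at least 17.5). Precision is set by the number of libraries and, for low genes, by counts.

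Preparation codes were taken as pairing samples where the deviations from the group means correlated above 0.1 in every pair. They did for brainstem and hippocampus (6 pairs, 0.557 to 0.840), striatum and hippocampus (6 pairs, 0.240 to 0.742) and brainstem and striatum (5 pairs, 0.391 to 0.773). They did not in every pair for P1D7 and P0D0 (6 pairs, 0.0437 to 0.196, 3 of them above 0.1). These libraries share codes all the same, so the result with the block is given beside the main one.

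Of 28623 identifiers, 0 matched the RefSeq table of 40596 genes, in which 0 have an Ensembl identifier. So 4 identifiers are named by a rule: P0D0 and P1D7 libraries all above P0D7, at least 5 FPKM in P1D7, the 2 lowest and the 2 highest ratios of P1D7 to P0D0. Marker lists, pathways and sequences were not analysed here.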

Additional observations from a re-analysis of the deposited data

Results flagged for a closer look

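A library far from the others of its group was looked for in 30 sets of values, 24 for the 4 named identifiers and 6 for the median over the 123 genes, and 3 had one, where chance gives about 1 in 20. ENSMFAG00000030983 had 6.36 FPKM in brainstem replicate 6, and the next highest brainstem library had 2.86 FPKM. ENSMFAG00000039873 had 20.9 FPKM in P0D0 replicate 4, and the next highest P0D0 library had 12.8 FPKM. Without it the gene did not meet the rule, as P0D7 was then 51.2% of P0D0. That P0D0 library also had the highest median over the 123 genes, 120% of the P0D0 mean. ENSMFAG00000030766 had 0.583 FPKM in brainstem replicate 2, the next highest brainstem library had 0.143 FPKM, and these are values of few counts.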

How the results depend on the processing

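The number of genes taken moved with the thresholds. It was 341 with folds of 1.5, 35 with folds of 3, 37 with a P1D7 floor of 5 FPKM and 193 in the 6 complete preparations alone. It was 166 with medians, of which 90 were among the 123, 141 with TMM-scaled FPKM, 138 with TMM-scaled counts, and 109 to 153 with 1 cortical library left out. For the same 123 genes, the median share of the P0D0 level restored was 55.0% to 67.7% with medians, TMM scaling or the 6 complete preparations. It was 53.3% to 63.9% with 1 library left out. This share was not taken for the gene sets that other thresholds gave. For P1D7 against P0D0, 35 to 56 genes were lower and 8 to 14 higher over the other settings. Over all genes tested these were 3757 to 6580 and 2572 to 4971, of 13522 genes (20145 without the filter). With 1 library left out, 40 to 46 of the 123 genes were lower and 9 to 13 higher. Of all 13522 genes, 4579 to 4648 were then lower and 3921 to 3972 higher. The replicate block gave 49 and 11 of the 123 genes, beside 34.4% and 29.5% of all genes tested. Its codes are shared, but correlations were above 0.1 in only 3 of 6 pairs. Nothing is read from the difference between these shares. For brainstem against hippocampus, 30 genes were called with the preparation as a replicate block and 2 by DESeq2, against 0 without the block. Of all genes tested, 533 were called with the block, 8 by DESeq2 and 0 without the block. With the block, 10 to 28 genes were lower in brainstem when 1 library was left out, an alternative chosen after seeing the data. Over all genes tested, 33 to 311 were lower in those fits. For striatum against hippocampus with the block, such fits called 0 to 12 genes, and for brainstem against striatum 0. Over all genes tested they called 2 to 296 and 0 to 1. Without the block, leaving out 1 library gave 0 of the 123 genes in all 3 comparisons of structures. The causes were not tested. The lowest gene had 4 counts over the 8 cortical P0D7 libraries, which is near the limit of the depth.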
